A study of Mus musculus with 24 samples.

Results

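The comparison described here sets RNA recovered with STAU2 from the mouse cortex at embryonic stage E17.5 against the same at E15.5, when the last neurons of the cortex are being made and the earlier ones are maturing. It covers every row of the deposited peak table that carries a gene symbol and is placed inside a gene, which is 14292 rows of 7967 gene identifiers out of 18975 rows over 13879 merged peaks. A row is 1 merged peak on 1 strand, assigned to 1 gene, with a read count in each library. The study's 24 samples are brain cortex of C57BL/6 mouse embryos, taken at 4 stages from E11.5 to E17.5, with 3 immunoprecipitations and 3 inputs each. The 2 groups compared are 3 E17.5 libraries and 3 E15.5 libraries immunoprecipitated with an anti-STAU2 antibody (Abcam ab60724), and the labels name no mutant allele and no treatment in either. They do not say whether replicates are separate embryos, litters or pools, so a p-value covers nothing beyond the spread among these libraries, which may be technical. Input libraries were not analysed here, so that altered abundance and altered binding of an RNA are mixed in each change. In whole tissue, fewer cells of a type and less RNA per cell cannot be told apart.

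STAU2 is a mammalian Staufen protein, a family that binds double-stranded stretches of RNA, many of them in the 3′ untranslated regions (UTRs) of messenger RNAs. In neurons it travels in RNA granules along dendrites, and in dividing cortical progenitors it is known to be inherited unevenly by the daughter cells, with the RNAs it carries. Radial glia divide at the ventricle and give rise to intermediate progenitors and neurons, which move outwards to form deep and then upper layers before growing axons and synapses.

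Rows of Nrgn, Vsnl1, Gucy1b1 and Camk2b, all genes of neuronal signalling, had the largest increases at E17.5, and rows of Ttr, Nhlh1, Dcc and Igf2 the largest decreases. This ranking covers changed rows reaching 50 CPM (read counts scaled to library size) in the higher stage, with libraries that did not overlap between stages. Of 14101 rows tested with edgeR's quasi-likelihood test (Benjamini-Hochberg adjusted p under 0.05), 1843 changed, which is 13.1% of them. At E17.5, 831 rows were higher (5.89%) and 1012 were lower (7.18%). With counts summed per gene, 1611 of 7873 genes changed (20.5%), 738 upwards (9.37%) and 873 downwards (11.1%). The 3 E17.5 libraries lay wholly above the 3 E15.5 libraries in 2035 rows and wholly below in 2268, together 30.5% of the rows tested, and 1778 of the 1843 changed rows were among them. The median log2 change was -0.01 over all rows and 0.00 over all genes.

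Counts in the gene rows totalled 4685708 to 5181736 per E17.5 library, against 5838544 to 6372132 per E15.5 library. As a share of the counts over every peak this was 35.2% to 38.5% at E17.5 and 41.6% to 47.1% at E15.5. The balance of rises and falls depended on how the libraries were scaled. Scaling by the gene-row total moved the median of all rows to -0.19 and gave 582 rises and 1382 falls. Scaling by the total over every peak moved it to -0.42 and gave 372 rises and 2304 falls, whereas relative log expression factors moved it to 0.04 and gave 924 rises and 921 falls. Changes below are relative to the trimmed-mean (TMM) scaling. Leaving out E17.5 replicate 1 reduced the changed rows to 1055, leaving out E17.5 replicate 3 to 1160 and leaving out E15.5 replicate 3 to 1196. A marker of cortical neurons was present in both stages. Fezf2, which specifies deep-layer neurons, had 527, 541 and 559 CPM at E17.5 and 832, 876 and 940.3 CPM at E15.5.

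**Figure D1:**
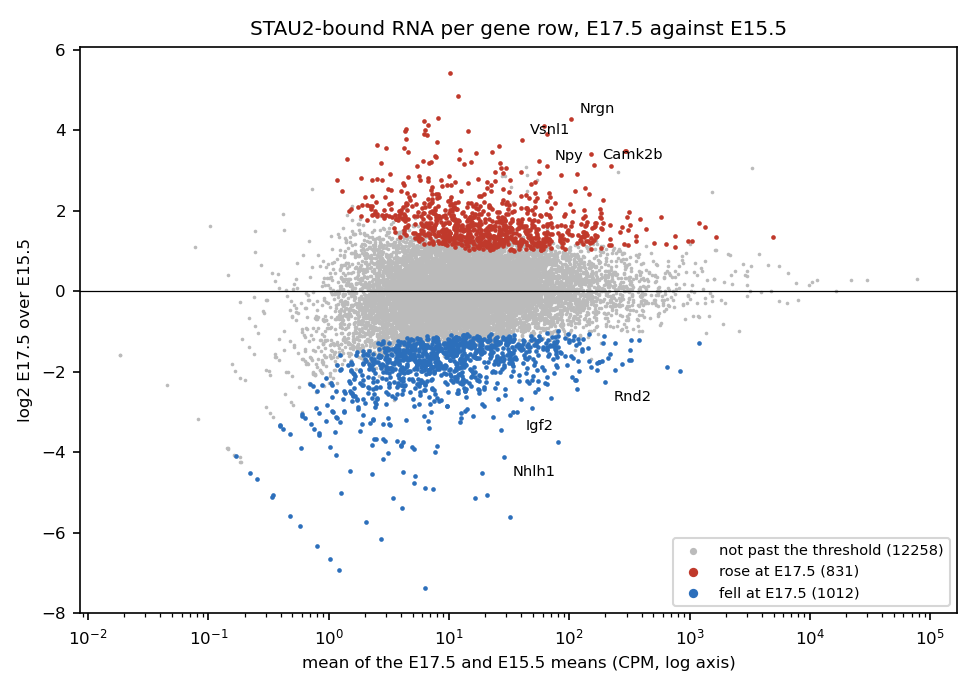
Log2 change of each tested gene row at E17.5 over E15.5 (vertical axis) against the mean of both stage means in CPM (log axis). Red points are the 831 rows that rose and blue points the 1012 that fell, and the named rows are among those described in the text.

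Because STAU2 recognises paired RNA, 4 of the changed rows that lie wholly in coding sequence are shown with their letters, as the transcript reads 5′ to 3′. They are among the rows of at most 300 bases, in genes of the lists described below, with libraries that did not overlap and at least 20 CPM in the higher stage. Each has 145 bases. The sequence was read from GENCODE M21 transcripts on GRCm38, not from the libraries. Capitals mark the 2 arms of the longest unbroken run of base pairs in the minimum-free-energy fold that RNAfold predicts, which is a prediction for that window alone. The rows lie at chr2:30026647-30026791 on the plus strand (Sptan1), chr4:82498494-82498638 on the minus strand (Nfib), chr1:194793822-194793966 on the plus strand (Plxna2) and chr2:79454694-79454838 on the minus strand (Neurod1).
Sptan1: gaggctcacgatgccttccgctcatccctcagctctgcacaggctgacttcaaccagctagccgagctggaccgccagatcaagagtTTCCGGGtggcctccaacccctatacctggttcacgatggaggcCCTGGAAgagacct
Nfib: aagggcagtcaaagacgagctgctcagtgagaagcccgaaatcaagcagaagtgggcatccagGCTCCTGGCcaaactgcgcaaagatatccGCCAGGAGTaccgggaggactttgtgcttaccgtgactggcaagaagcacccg
Plxna2: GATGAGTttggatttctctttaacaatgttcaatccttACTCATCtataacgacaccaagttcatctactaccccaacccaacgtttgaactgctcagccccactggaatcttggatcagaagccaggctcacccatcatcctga
Neurod1: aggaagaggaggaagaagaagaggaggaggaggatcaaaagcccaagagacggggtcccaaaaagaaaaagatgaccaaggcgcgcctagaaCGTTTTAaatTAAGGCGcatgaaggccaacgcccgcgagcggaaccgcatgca

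The Sptan1 row lies in the message of alpha-II spectrin, a protein of the membrane skeleton. It had 201, 134 and 182 CPM at E17.5, against 34.4, 47.1 and 48.8 CPM at E15.5 (log2 1.99 ± 0.36 SE, edgeR adjusted p 0.000822), and its arms of 7 base pairs enclose 37 bases. In that row every E17.5 library was above every E15.5 library, as the choice of these 4 rows required. The row of Neurod1, a proneural transcription factor, had 13.1, 19.7 and 16.4 CPM at E17.5, against 47.4, 58.9 and 50.6 CPM at E15.5 (log2 -1.67 ± 0.36, edgeR adjusted p 0.0038), and its helix closes a loop of 3 bases. Nfib, a transcription factor of neuronal and glial differentiation, had 122, 84.8 and 164 CPM at E17.5 and 236, 239.6 and 329.5 CPM at E15.5 in its row (edgeR adjusted p 0.0464), which carries the longest helix of the 4, with 9 base pairs around 20 bases. Plxna2, a receptor subunit for semaphorins, had 11.3, 13.7 and 11.95 CPM at E17.5 and 34.5, 24.98 and 27.8 CPM at E15.5 (edgeR adjusted p 0.0385). These 3 rows were lower in every E17.5 library, a separation that the choice also fixed. The Nfib and Plxna2 calls were each lost without any 1 of 5 libraries, with adjusted p up to 0.164 for Nfib and 0.121 for Plxna2.

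The largest rises and falls were taken from changed rows that reached 50 CPM in the higher stage and did not overlap between stages. Gene models named Gm or Rik were skipped. The separation of libraries in these rows was thus fixed by the choice. Among these rows, the largest rise was in the 3′ UTR of Nrgn, encoding neurogranin, a postsynaptic calmodulin-binding protein (chr9:37544706-37545212, minus strand). It had 169, 194 and 231 CPM at E17.5, against 16.2, 8.51 and 5.9 CPM at E15.5, a 19.4-fold increase (log2 4.28 ± 0.51, edgeR adjusted p 1.66e-05). Vsnl1, the neuronal calcium sensor visinin-like 1, followed in its 3′ UTR with 45.02, 84.1 and 96.1 CPM at E17.5, against 4.65, 8.1 and 4.01 CPM at E15.5 (log2 3.75 ± 0.45, adjusted p 2.1e-05). Its lowest E17.5 library was still far above all E15.5 libraries. Camk2b, the beta subunit of calcium/calmodulin-dependent kinase II, had 194, 453 and 220.3 CPM in a coding exon at E17.5, against 46.3, 39.4 and 12.9 CPM at E15.5 (8.8-fold, adjusted p 0.000132). Here 1 E17.5 library stood well above the other 2, although the stages did not overlap. Camkv, a kinase-like protein that binds calmodulin, was 7.61-fold higher (219, 163 and 231 CPM at E17.5, against 25.3, 29.9 and 25.3 CPM at E15.5). Kcnip2, which modulates A-type potassium channels and senses calcium, was 8.35-fold higher, at 52.9, 37.4 and 70.5 CPM at E17.5, against 3.55, 7.41 and 8.24 CPM at E15.5.

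The 15 largest rises also held rows of Gucy1b1, Npy, Dync1i1 and Stmn4. Gucy1b1, the beta subunit of the soluble guanylate cyclase that nitric oxide activates, had 131, 100.2 and 73.3 CPM at E17.5, against 10.2, 11.7 and 10.4 CPM at E15.5 (log2 3.24 ± 0.43, edgeR adjusted p 4.58e-05). Npy, the neuropeptide Y gene, had 129.9, 91.7 and 128 CPM in its coding exon at E17.5, against 14.3, 11.7 and 14.4 CPM at E15.5 (log2 3.11 ± 0.37, adjusted p 2.1e-05). In both rows the E15.5 libraries were close together and no E17.5 library came near them. Dync1i1, a dynein intermediate chain, had 183, 100.02 and 168 CPM at E17.5, against 16.9, 18.4 and 25.7 CPM at E15.5 (log2 2.88 ± 0.38, adjusted p 3.5e-05). Stmn4, a stathmin that regulates microtubules, had 258, 127 and 185 CPM at E17.5, against 32.3, 28.3 and 41.1 CPM at E15.5 (log2 2.48 ± 0.36, adjusted p 0.000101). Both motor- and microtubule-related rows were above all E15.5 libraries, as the choice of rows required. Arpp21, a phosphoprotein regulated by cyclic AMP, was 7.83-fold higher, Akap7, an anchor of protein kinase A, 6.58-fold and Rph3a, a Rab3 effector at synaptic vesicles, 6.38-fold. Fam163b was 7.63-fold higher with an uneven spread, at 50.2, 79.0 and 171 CPM at E17.5, against 12.9, 15.51 and 10.9 CPM at E15.5. Mast1, a microtubule-associated kinase of neurons, was 6.81-fold higher in a row that the table calls 3′ UTR and GENCODE places in a coding exon. The remaining large rise, in an intron of Evc, is described with the rows that share a position with another gene.

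Among rows chosen in the same way, Ttr had the largest fall and is given below with the choroid plexus genes. Nhlh1, a transcription factor of newly born neurons, came next. Its 3′ UTR row (chr1:172052845-172052989, minus strand) had 3.7, 3.07 and 2.52 CPM at E17.5, against 52.4, 61.2 and 49.3 CPM at E15.5 (log2 -4.13 ± 0.43, edgeR adjusted p 3.24e-06). Dcc, the netrin receptor of growing axons, had 9.07, 3.98 and 7.55 CPM at E17.5, against 41.0, 56.1 and 77.1 CPM at E15.5 (8.42-fold lower, adjusted p 4.18e-05). For both genes the highest E17.5 library was below the lowest E15.5 library by a wide margin. Tcf7l1, a transcriptional repressor of the Wnt pathway, had 14.1, 15.4 and 5.5 CPM at E17.5, against 111, 70.7 and 77.4 CPM at E15.5 (7.42-fold lower, adjusted p 8.57e-05). Sfrp1, a secreted Wnt antagonist, had 30.2, 39.2 and 38.8 CPM at E17.5, against 196, 211 and 177 CPM at E15.5 (5.39-fold lower, adjusted p 8.16e-05). Gpc4, a heparan sulfate proteoglycan of the cell surface, had 8.74, 4.52 and 9.44 CPM in its 5′ UTR at E17.5, against 38.8, 73.7 and 68.6 CPM at E15.5 (7.94-fold lower). Cdon and Gas1, co-receptors for Sonic hedgehog, were 5.4-fold and 4.85-fold lower. Rnd2, a small GTPase of radial migration that acts downstream of Neurog2, had 62.3, 75.8 and 68.9 CPM at E17.5, against 355, 460.0 and 173 CPM at E15.5 (4.77-fold lower). Cdca3, which triggers mitotic entry, had 18.8, 22.1 and 23.4 CPM at E17.5, against 103, 103 and 106 CPM at E15.5. Nxph4, a neurexophilin, was 6.27-fold lower, although its E15.5 libraries ranged from 54.6 to 193 CPM. Igf2, a fetal growth factor, was 7.94-fold lower (5.21, 9.77 and 9.75 CPM at E17.5, against 83.9, 54.9 and 58.0 CPM at E15.5). Heg1 and Mfap4 were 4.89-fold and 6.33-fold lower and Tmem176b 5.62-fold lower. The 15 largest rises and 15 largest falls chosen in this way kept their calls under every alternative run.

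**Figure D2:**
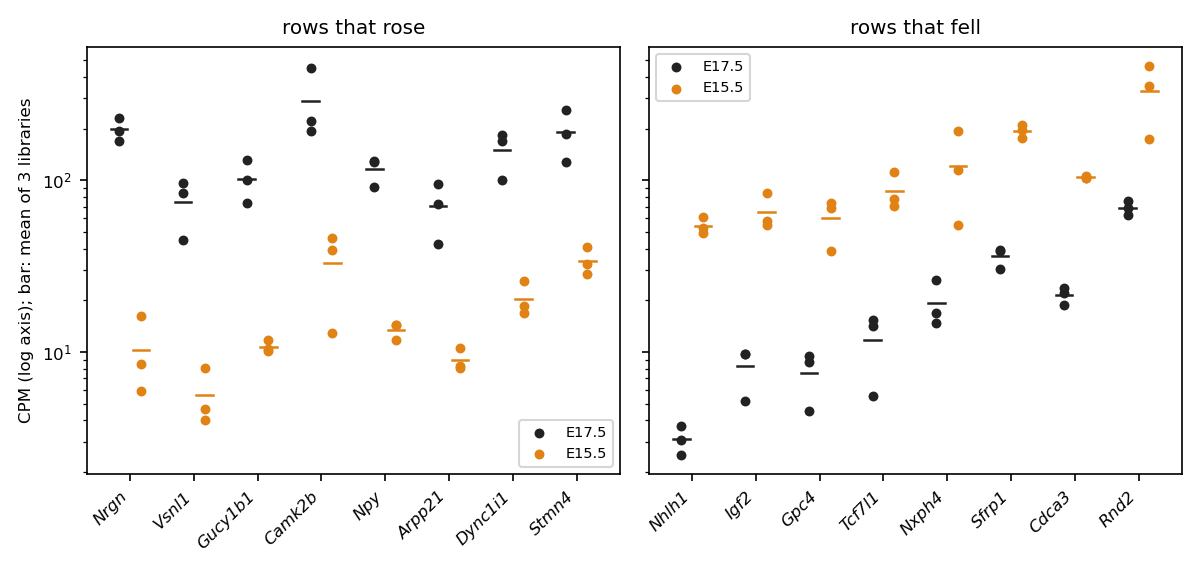
CPM on a log axis for 8 rows that rose (left) and 8 that fell (right), with 1 point per library, E17.5 in black left of E15.5 in orange, and a bar at the mean of 3 libraries. In all 16 rows the 3 libraries of one stage lie wholly above those of the other, which the choice of these rows required.

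With counts summed per gene, more genes rose than fell in the lists for calcium signalling, the neuronal cytoskeleton, ion channels and vesicle release. Over all genes tested 9.37% rose and 11.1% fell, the shares to set beside the counts of each list. In the calcium and calmodulin list 11 of the 17 genes measured rose and 1 fell, with a median log2 change of 1.41 against 0.00 over all genes. Ptk2b, a calcium-activated tyrosine kinase, averaged 19.9 ± 9.42 CPM at E17.5 and 0.431 ± 0.414 CPM at E15.5 (SD, n = 3 each), with an edgeR adjusted p of 0.000222. The single fall was Ppp3cb, a catalytic subunit of calcineurin, at 10.9 ± 0.137 CPM at E17.5 and 24.1 ± 5.68 CPM at E15.5 (edgeR adjusted p 0.00659). Of 24 measured cytoskeleton and axon initial segment genes 14 rose and 0 fell, with a median of 1.01, and 0 were lower at an unadjusted p under 0.05 or with DESeq2. Map6, which stabilises microtubules against cold, had 81.3, 94.3 and 88.9 CPM at E17.5, against 17.4, 19.9 and 15.9 CPM at E15.5. Crmp1, a collapsin response mediator, reached 1453, 1390.1 and 1130.2 CPM at E17.5, against 489.8, 494 and 501 CPM at E15.5. Stmn4 and Sptan1 increased over all their rows by log2 2.27 ± 0.23 and 1.93 ± 0.27. No library of either stage overlapped for these 4 genes.

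Vesicle genes rose apart from the glutamate transporters, among those that passed. Of 17 measured vesicle and release genes 8 rose and 2 fell, with a median of 0.90. The rises numbered 4 without E15.5 replicate 3 and 5 without E17.5 replicate 3. Snap25, a SNARE protein of vesicle fusion, had 576, 512 and 544 CPM at E17.5, against 137, 161 and 168 CPM at E15.5 (log2 1.81 ± 0.26, edgeR adjusted p 0.000283). Stx1a, its syntaxin partner, Rims1, a scaffold of the active zone, and Ppfia2, a liprin, increased by log2 2.04 ± 0.31, 2.68 ± 0.49 and 1.76 ± 0.33. The 2 falls were Slc17a7 and Slc17a6, the transporters that load glutamate into vesicles. Slc17a7 had 24.3, 33.8 and 36.5 CPM at E17.5, against 64.6, 76.7 and 101 CPM at E15.5 (log2 -1.36 ± 0.30, adjusted p 0.00555), and Slc17a6 changed by log2 -1.20 ± 0.29 (adjusted p 0.00884). For both transporters all E17.5 libraries lay below all E15.5 libraries.

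Ion channels showed 6 rises and 0 falls among 11 measured genes, with a median of 0.93, and 1 was lower at an unadjusted p under 0.05 (0 with DESeq2), whereas 22 of the 33 listed channels had no gene row. The rises numbered 3 without E15.5 replicate 1, E15.5 replicate 3 or E17.5 replicate 2, and every-peak totals gave 3 rises and 2 falls. Cacna1b and Cacna1c, pore subunits of N-type and L-type calcium channels, increased by log2 1.91 ± 0.40 and 1.63 ± 0.39 (edgeR adjusted p 0.00372 and 0.00808). Kcnk1, a potassium channel of the leak type, averaged 9.83 ± 1.27 CPM at E17.5 and 2.56 ± 1.01 CPM at E15.5. Kcnc1, a fast potassium channel, had log2 1.60 ± 0.45, and its call was lost without E15.5 replicate 1, E15.5 replicate 3 or E17.5 replicate 2 (adjusted p 0.0679 to 0.0722) and with every-peak totals (adjusted p 0.0521).

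Of the receptors for glutamate and GABA, 2 of 8 measured rose and 0 fell, beside 9.37% and 11.1% of all genes. Their median of 0.16 became -0.00 with gene-row totals and -0.24 with every-peak totals. At an unadjusted p under 0.05, or with DESeq2, 0 were lower. Grin1, the obligatory NMDA receptor subunit, had 33.2, 40.3 and 31.1 CPM at E17.5, against 5.48, 8.62 and 3.72 CPM at E15.5 (log2 2.56 ± 0.39, edgeR adjusted p 0.000432). Grm2, a presynaptic metabotropic receptor, increased by log2 2.19 ± 0.41. Gria4, an AMPA receptor subunit, had a log2 change of 0.74 ± 0.30 and did not pass (adjusted p 0.0953).

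Postsynaptic scaffolds were mixed, with 3 rises and 1 fall among 14 measured genes and a median of 0.15 that became -0.00 and -0.23 under those scalings. Shank1, a master scaffold of the postsynaptic density, had 345, 418 and 397 CPM at E17.5, against 106, 141 and 80.3 CPM at E15.5 (log2 1.83 ± 0.26, edgeR adjusted p 0.00025). Dlg2, the PSD-93 scaffold, increased by log2 1.88 ± 0.36, whereas Dlg1, the related SAP97, changed by -1.26 ± 0.26 (adjusted p 0.00285). The Dlg1 fall was lost with the peak score minimum (adjusted p 0.0688).

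**Figure D3:**
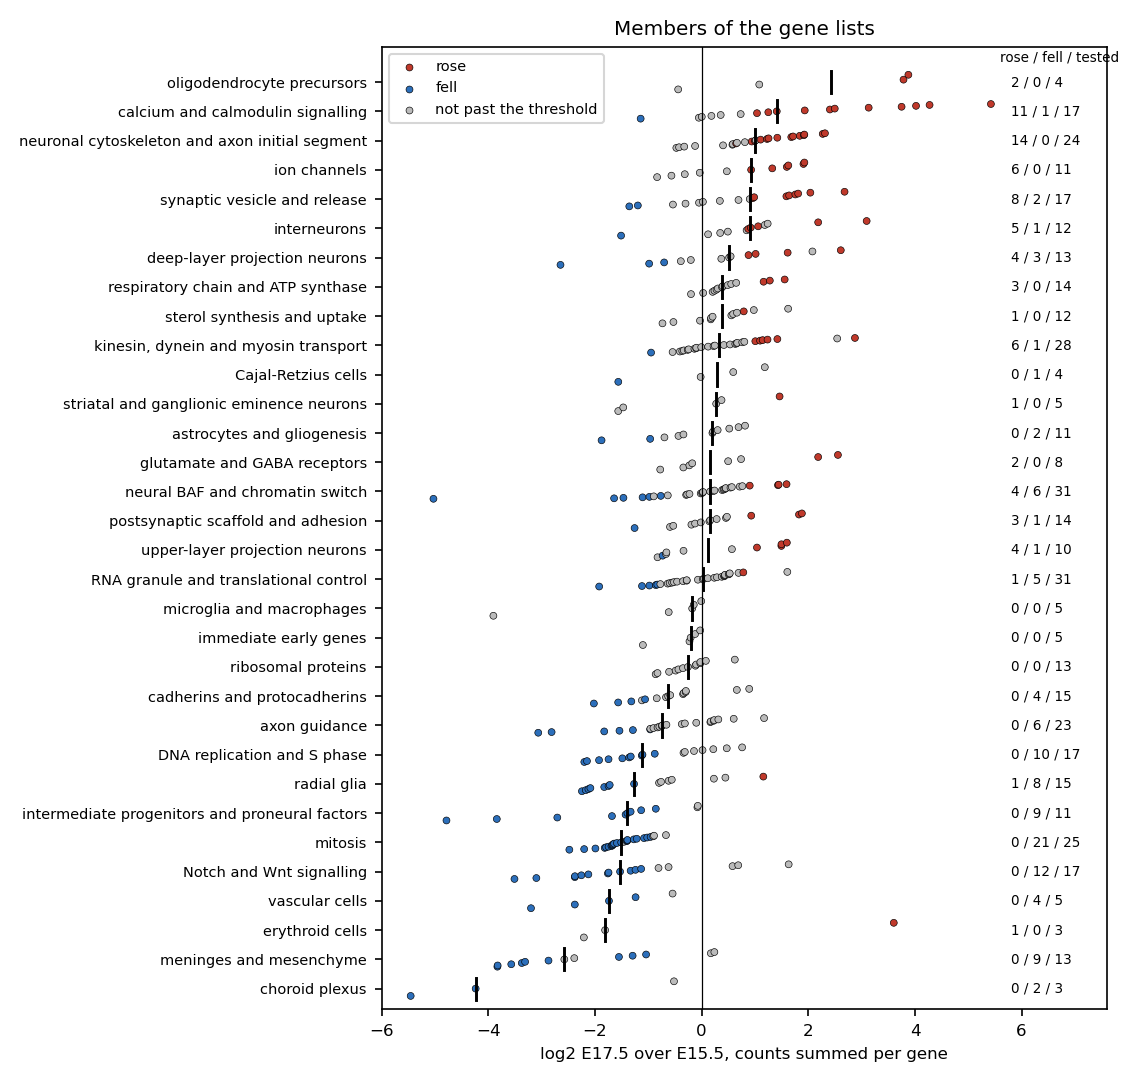
Log2 change at E17.5 over E15.5 of each tested member of 32 gene lists, counts summed per gene, with lists ordered by their median (black bar) and the numbers that rose, fell and were tested at the right. Red points rose, blue points fell and grey points did not pass the threshold. The oligodendrocyte precursor list, with 4 genes (median 1.08 over 5 genes without the filter on low counts), and the calcium list have the highest medians, 2.43 and 1.41. The choroid plexus and meninges lists have the lowest, -4.24 and -2.57. The choroid plexus list has 3 genes, and its median is the value of Otx2, which had no counts at E17.5.

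Falls outnumbered rises among genes of progenitors. Of 15 measured radial glia genes 8 fell and 1 rose, with a median of -1.27. Gli3, a zinc finger factor of Hedgehog signalling and cortical patterning, had 7.93, 14.6 and 12.8 CPM at E17.5, against 54.7, 54.0 and 41.1 CPM at E15.5 (log2 -2.08 ± 0.29, edgeR adjusted p 0.000223). Emx2, a homeobox factor that patterns the cortex, had 34.9, 24.3 and 22.4 CPM at E17.5, against 126, 98.3 and 144 CPM at E15.5 (log2 -2.17 ± 0.32, adjusted p 0.000301). Both genes, and likewise Prom1 (log2 -2.24 ± 0.36), a membrane protein of apical protrusions, and the receptor Notch2 (log2 -1.74 ± 0.28), had no overlap between stages. The exception was Fabp7, a lipid-binding protein of radial glia, with 1024, 939.6 and 647 CPM at E17.5, against 444, 231 and 496 CPM at E15.5. Its change of 1.16 ± 0.31 (adjusted p 0.0145) was lost without E15.5 replicate 2 (adjusted p 0.053) or E17.5 replicate 1 (adjusted p 0.0571), and with every-peak totals (adjusted p 0.136).

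Intermediate progenitor and proneural genes showed 9 falls and 0 rises among 11 measured, with a median of -1.39. Neurog1 averaged 2.74 ± 0.872 CPM at E17.5 and 75.7 ± 23.4 CPM at E15.5 (SD, n = 3 each). Nhlh1 over both its rows had 10.7, 16.3 and 15.3 CPM at E17.5, against 186, 309 and 113 CPM at E15.5. Rhbdl3, a rhomboid-like protein, and Neurod1 changed by log2 -2.70 ± 0.49 and -1.68 ± 0.30 (edgeR adjusted p 0.00137 and 0.00138).

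The proneural and both cell-cycle lists held no rise at an unadjusted p under 0.05 either, and none with DESeq2. Of 25 measured mitosis genes 21 fell, with a median of -1.51, and of 17 measured replication genes 10 fell, with a median of -1.11. Kif15, a spindle kinesin, had 6.12, 4.97 and 3.63 CPM at E17.5, against 17.4, 17.4 and 23.8 CPM at E15.5 (log2 -1.99 ± 0.33, edgeR adjusted p 0.000643). Aspm, a spindle pole protein required for cortical size, and Bub1b, a spindle checkpoint kinase, changed by log2 -1.79 ± 0.29 and -1.67 ± 0.30. E2f8 and E2f7, repressors of the E2F family, changed by -2.15 ± 0.30 and -1.74 ± 0.32, and E2f1 by -1.49 ± 0.24. Ccnd2, a cyclin of progenitors, had 25.6, 44.6 and 52.0 CPM at E17.5, against 125, 305 and 131 CPM at E15.5 (log2 -2.20 ± 0.39, adjusted p 0.00112).

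Notch and Wnt signalling genes fell in 12 of 17 cases with 0 rises and a median of -1.53. Lef1, the nuclear partner of beta-catenin, had 2.98, 2.84 and 3.32 CPM at E17.5, against 32.6, 39.6 and 32.4 CPM at E15.5 (log2 -3.51 ± 0.30, edgeR adjusted p 4.09e-06). Tcf7l1 over its 8 rows had 30.6, 33.4 and 18.2 CPM at E17.5, against 269, 247 and 187 CPM at E15.5. Sfrp1 and Nkd1, an inhibitor of Dishevelled, changed by log2 -2.37 ± 0.23 and -2.25 ± 0.34. Every E17.5 library was below every E15.5 library for these 4 genes. With DESeq2, as at an unadjusted p under 0.05, 1 gene of the list was higher, as it was without E15.5 replicate 2 or E17.5 replicate 3.

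Layer markers changed in both directions. Upper-layer genes gave 4 rises and 1 fall among 10 measured, with a median of 0.12 that became -0.04 with gene-row totals and -0.27 with every-peak totals. Lmo4, a LIM-domain cofactor, had 582, 569.9 and 514 CPM at E17.5, against 240.5, 194 and 156 CPM at E15.5 (2.82-fold, edgeR adjusted p 0.000553). Dok5, an adaptor of tyrosine kinases, was likewise 2.82-fold higher. The fall was Mdga1, an adhesion protein of upper-layer neurons (log2 -0.73 ± 0.23, adjusted p 0.0311), whose call was lost without any 1 of 5 libraries, E15.5 replicate 3 being the exception (adjusted p 0.0553 to 0.109). Among 13 deep-layer genes 4 rose and 3 fell, with a median of 0.52. The rises numbered 2 without E17.5 replicate 1 and with every-peak totals. Ldb2, a LIM-domain-binding cofactor of corticospinal neurons, had 313, 212 and 306 CPM at E17.5, against 74.1, 99.7 and 97.9 CPM at E15.5. Ntsr1, the neurotensin receptor that marks layer 6, had 11.2, 16.0 and 17.4 CPM at E17.5, against 1.58, 3.1 and 2.59 CPM at E15.5. Sox5, which times deep-layer differentiation, had 82.2, 119 and 89.1 CPM at E17.5, against 216, 181 and 177 CPM at E15.5 (log2 -0.98 ± 0.24, adjusted p 0.00796). Fezf2 changed by -0.70 ± 0.23 (adjusted p 0.0395), a call lost on leaving out any 1 of the 6 libraries (adjusted p 0.0673 to 0.111).

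Interneuron genes gave 5 rises and 1 fall among 12 measured, with a median of 0.90. The rises numbered 3 with gene-row totals and without E15.5 replicate 1, E15.5 replicate 3 or E17.5 replicate 3, and 2 with every-peak totals. Gad1, which makes GABA, had 18.3, 27.9 and 23.4 CPM at E17.5, against 6.09, 5.12 and 4.06 CPM at E15.5 (log2 2.19 ± 0.33, edgeR adjusted p 0.000356). Dlx2, a homeobox factor of the ganglionic eminences, had 113, 108 and 96.4 CPM at E17.5, against 42.9, 58.3 and 51.0 CPM at E15.5 (log2 1.06 ± 0.24, adjusted p 0.00607), and missed the threshold with every-peak totals (adjusted p 0.0793). Npy over both rows increased by log2 3.09 ± 0.28. Sox6, a factor of interneuron maturation that is also made in progenitors, fell by 1.51 on the log2 scale, at 5.34 ± 1.47 CPM at E17.5 and 15.3 ± 5.17 CPM at E15.5 (SD, n = 3 each). Of 5 measured striatal and ganglionic eminence genes, Six3 was the 1 that rose, with 0 falls. Its call was lost without E17.5 replicate 2 (adjusted p 0.082) and with every-peak totals (adjusted p 0.0796), where the list had 1 fall and its median of 0.27 became -0.13. Cajal-Retzius genes gave 0 rises and 1 fall of 4 and a median of 0.29 that became -0.11 with every-peak totals. With DESeq2, the replicate block or relative log expression factors the list had 1 rise and 0 falls. The fall, Ebf2, rested on 0.556 ± 0.0957 CPM at E17.5 and 1.68 ± 0.304 CPM at E15.5, and was lost on leaving out any 1 of the 6 libraries (adjusted p 0.0612 to 0.129).

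Oligodendrocyte precursor genes gave 2 rises and 0 falls among 4 measured, with a median of 2.43 and 0 lower at an unadjusted p under 0.05 or with DESeq2. The median was 1.08 over 5 genes without the filter on low counts, and at a minimum of 10 CPM only 1 gene remained, at -0.43. Olig2, a transcription factor of that lineage, had 14.5, 14.03 and 8.22 CPM at E17.5, against 0.487, 0.943 and 1.01 CPM at E15.5 (log2 3.88 ± 0.54, edgeR adjusted p 0.00021). Sox10, another such factor, had 8.76, 5.33 and 10.4 CPM at E17.5, against 0.365, 0.808 and 0.563 CPM at E15.5 (log2 3.79 ± 0.60, adjusted p 0.000745). Neither gene reached its lowest E17.5 level in any E15.5 library. Of 11 measured astrocyte and gliogenesis genes 0 rose and 2 fell, beside 20.5% of all genes changed. Their median of 0.20 became -0.21 with every-peak totals, and 2 were higher at an unadjusted p under 0.05 (0 with DESeq2). Without E15.5 replicate 3 there was 1 rise. Nfia, a nuclear factor that promotes gliogenesis, had 81.5, 76.9 and 79.2 CPM at E17.5, against 218, 361 and 292 CPM at E15.5 (log2 -1.88 ± 0.31, adjusted p 0.000729). Nfib changed by -0.96 ± 0.28 over its 6 rows (adjusted p 0.0242), lost without E15.5 replicate 2, E17.5 replicate 1 or E17.5 replicate 2 (adjusted p 0.0726 to 0.107). Nfix, another member of the family, had 1660.5, 2081 and 1753 CPM at E17.5 and 1427, 1207 and 765 CPM at E15.5, a log2 change of 0.69 ± 0.31 that did not pass (adjusted p 0.125).

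Guidance and adhesion messages were lower where they passed. Of 23 measured axon guidance genes 6 fell and 0 rose, with a median of -0.74, and of 15 cadherins and protocadherins 4 fell and 0 rose, with a median of -0.63. Over all genes 11.1% fell and 9.37% rose. At an unadjusted p under 0.05, 1 gene of each list was higher, and with DESeq2 1 guidance gene and 0 cadherins. Without E17.5 replicate 3 the guidance list had 1 rise and 5 falls, and the cadherins had 2 falls without E15.5 replicate 2 and 7 with every-peak totals. Sema5a, a transmembrane semaphorin, had 2.64, 5.86 and 5.53 CPM at E17.5, against 37.5, 38.3 and 23.1 CPM at E15.5 (log2 -2.81 ± 0.34, edgeR adjusted p 8.41e-05). Efnb1, an ephrin, and Epha4, an Eph receptor, changed by log2 -1.83 ± 0.27 and -1.54 ± 0.31. Cdh13, a cadherin without a transmembrane part, and Celsr1, a seven-pass cadherin of planar polarity, changed by -1.32 ± 0.27 and -2.02 ± 0.42 (adjusted p 0.00316 and 0.00357).

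Genes of RNA granules passed at a rate near that of all genes. Of 31 measured RNA granule and translation genes 1 rose and 5 fell, beside 20.5% of all genes changed, with a median of 0.02 that became -0.15 with gene-row totals and -0.38 with every-peak totals. DESeq2 gave 3 rises and 5 falls, leaving out 1 library 0 rises and 2 to 4 falls, and every-peak totals 0 rises and 10 falls. Igf2bp2, an RNA-binding protein of fetal progenitors, had 47.6, 51.7 and 37.0 CPM at E17.5, against 199, 179 and 137 CPM at E15.5 (log2 -1.92 ± 0.27, edgeR adjusted p 0.00025). Msi1, the progenitor RNA-binding protein Musashi, had 302, 314 and 281 CPM at E17.5, against 634, 659.9 and 654 CPM at E15.5 (log2 -1.12 ± 0.23, adjusted p 0.00295). The 1 rise, Fxr2, was lost on leaving out any 1 of the 6 libraries (adjusted p 0.0644 to 0.147). Stau2 itself had 138, 125 and 139.5 CPM at E17.5, against 79.7, 106 and 112 CPM at E15.5, with libraries that did not overlap but a log2 change of 0.44 ± 0.26 that did not pass (adjusted p 0.247). None of its 6 rows passed. Stau1, the paralogue, had a log2 change of 0.12 ± 0.28 (adjusted p 0.804).

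Transport genes gave 6 rises and 1 fall among 28 measured, beside 20.5% of all genes changed. Their median of 0.33 became -0.06 with every-peak totals. That scaling gave 1 rise and 2 falls, and the rises numbered 3 with gene-row totals and without E15.5 replicate 1, E15.5 replicate 2 or E17.5 replicate 2. Beside Dync1i1, Klc1, a kinesin light chain, had 1188, 1106 and 1583 CPM at E17.5, against 617, 379 and 649.5 CPM at E15.5 (log2 1.24 ± 0.27, edgeR adjusted p 0.00519), and Dctn1, the largest dynactin subunit, increased by 1.14 ± 0.25 (adjusted p 0.00477). Both missed the threshold with every-peak totals (adjusted p 0.0649 for Klc1 and 0.0795 for Dctn1). The fall was Myo10, a myosin of filopodia, at 15.8 ± 2.81 CPM at E17.5 and 30.4 ± 0.866 CPM at E15.5. Chromatin genes gave 4 rises and 6 falls among 31 measured, with a median of 0.16 that became -0.23 with every-peak totals, where 2 rose and 8 fell. Actl6b, the BAF subunit of neurons, had 154, 122 and 121 CPM at E17.5, against 47.8, 50.5 and 49.1 CPM at E15.5 (log2 1.43 ± 0.24, adjusted p 0.000765). Hdac11, a histone deacetylase, also increased (log2 1.44 ± 0.30), and Smarca4, the BAF ATPase, by 0.90 ± 0.22, a call lost with every-peak totals (adjusted p 0.168). Hmga2, an architectural chromatin protein abundant in early progenitors, had 0, 1.6 and 0 CPM at E17.5, against 17.9, 15.8 and 17.8 CPM at E15.5 (adjusted p 0.000122). Hmgb2, a chromatin protein of dividing cells, and Suz12, a Polycomb subunit, changed by log2 -1.64 ± 0.30 and -1.46 ± 0.29.

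Ribosomal protein genes gave 0 rises and 0 falls among 13 measured with edgeR (median -0.26), 2 were lower at an unadjusted p under 0.05 and 1 fell with DESeq2, 1 with gene-row totals and 2 with every-peak totals, and reads of their pseudogene copies may be shared with them. Respiratory chain genes gave 3 rises and 0 falls of 14 (median 0.39), beside 20.5% of all genes changed. Among these, Sdha, a subunit of succinate dehydrogenase, had 200.3, 153 and 164 CPM at E17.5, against 84.3, 52.4 and 76.4 CPM at E15.5 (log2 1.28 ± 0.25, edgeR adjusted p 0.00242). Sterol genes gave 1 rise and 0 falls of 12 (4 rises with DESeq2), with a median of 0.38 that became -0.04 with every-peak totals. That rise, Fdft1, which makes squalene, was lost without E15.5 replicate 1, E15.5 replicate 2, E17.5 replicate 1 or E17.5 replicate 3 (adjusted p 0.0641 to 0.112), with gene-row totals (adjusted p 0.118), with every-peak totals (adjusted p 0.369) and with the 6 libraries alone (adjusted p 0.0639). Immediate early genes gave 0 rises and 0 falls of 5 (median -0.20), with 1 lower at an unadjusted p under 0.05 and 0 with DESeq2, and 1 fell without E17.5 replicate 1 and under both total scalings. Ier2, an immediate early nuclear protein, had 15.04, 5.33 and 7.74 CPM at E17.5, against 12.4, 26.4 and 21.6 CPM at E15.5.

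Markers of tissue next to the cortex, and of blood vessels, were also lower at E17.5 where they passed. Of 14 listed choroid plexus genes 3 had a gene row and 2 fell, with summed levels of 4.44 to 5.29 CPM at E17.5 and 62.4 to 121 CPM at E15.5. Ttr, the thyroid hormone carrier made by that epithelium, was most of it, at 2.98, 1.24 and 2.21 CPM at E17.5, against 111, 58.9 and 116 CPM at E15.5 (log2 -5.45 ± 0.38, edgeR adjusted p 1.16e-06). Otx2, a homeobox factor, had 0 counts at E17.5 and 9 counts over the 3 E15.5 libraries, at least 2.2-fold lower against a floor of 3 counts over the stage. The Otx2 call was lost on leaving out any 1 of the 6 libraries (adjusted p 0.0536 to 0.0914). Of 19 listed meningeal and mesenchymal genes 13 were measured, and 9 fell, with summed levels of 24.9 to 25.6 CPM at E17.5 and 89.2 to 110 CPM at E15.5. Col1a1 and Col1a2, the chains of type I collagen, had 1.33 ± 0.153 and 0.51 ± 0.306 CPM at E17.5, against 16.0 ± 1.46 and 7.4 ± 0.638 CPM at E15.5 (SD, n = 3 each). Of 22 vascular genes 5 were measured, and 4 fell, with summed levels of 15.9 to 32.4 CPM at E17.5 and 55.3 to 65.7 CPM at E15.5. Cdh5, the cadherin of endothelium, changed by log2 -3.20 ± 0.51 (adjusted p 0.000484). The vascular call of Vtn (edgeR adjusted p 0.0469) was lost in 8 of 13 alternatives. The part of these cells in other falls, such as those of Igf2, Mfap4, Gas1 and Heg1, was not tested.

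Blood-cell markers showed no such fall past the threshold. Microglial and macrophage genes gave 0 rises and 0 falls of 5 measured out of 17 listed, with 1 lower at an unadjusted p under 0.05 and 0 with DESeq2, and 12 of the 17 had no gene row. With every-peak totals 1 of the 5 fell. Csf1r, the receptor that microglia depend on, had 4.13, 4.8 and 2.69 CPM at E17.5, against 4.14, 3.37 and 5.3 CPM at E15.5 (edgeR adjusted p 0.831). Pf4 had 0 counts at E17.5 and 7 over the E15.5 libraries. Of 15 erythroid genes 3 were measured, with summed levels of 21.1 to 243 CPM at E17.5 and 2.92 to 17.1 CPM at E15.5. That was nearly all Ank1, an ankyrin also made in neurons, with 123, 20.96 and 243 CPM at E17.5, against 2.31, 12.5 and 16.9 CPM at E15.5. Alas2 and Ermap, also measured, had log2 changes of -2.21 and -1.81 and did not pass (edgeR adjusted p 0.191 and 0.338). The median of the erythroid list was -1.81. The Ank1 rise (adjusted p 0.0291) was lost without any 1 of 5 libraries, E17.5 replicate 2 being the exception (adjusted p 0.0523 to 0.11).

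Rows called 5′ UTR fell more often than they rose, and rows called 3′ UTR about as often. Of 6640 rows the table calls 3′ UTR, 7.82% rose and 7.15% fell. Of 1126 rows called 5′ UTR, 3.2% rose and 8.7% fell, with a median log2 change of -0.24. Of 5868 rows called exon, 4.31% rose and 7.12% fell, and of 467 called intron, 4.93% rose and 4.5% fell. The 5′ UTR rows as a whole held 4.79% ± 0.371 of the gene-row counts at E17.5 and 5.68% ± 0.541 at E15.5 (SD, n = 3 each, exact two-sided permutation test, p 0.2). For 3′ UTR rows the shares were 40.0% ± 0.926 at E17.5 and 39.7% ± 1.57 at E15.5 (exact permutation p 0.9). Shares were also taken with the 10 highest gene rows left out of the total. The 5′ UTR rows then held 6.45% ± 0.4 at E17.5 and 7.53% ± 0.664 at E15.5 (exact permutation p 0.1). The 3′ UTR rows then held 52.6% at E17.5 and 51.3% at E15.5 (exact permutation p 0.5). The smallest p that 3 libraries against 3 allow is 0.1. Of the table's 3′ UTR rows, 77.6% lie in a 3′ UTR in GENCODE. Rows of long intergenic non-coding RNAs fell in 22 of 137 cases and rose in 10 (16.1% and 7.3%), beside 7.18% and 5.89% of all rows.

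Median GC content was higher in rising than in falling rows in 3′ UTRs and coding exons, with quartile ranges that overlapped. It was lower in 5′ UTRs, where only 3 of 21 rising rows had a sequence. Sequence was read only for rows lying within 1 exon of a transcript, a smaller part of the rising than of the falling rows. In GENCODE 3′ UTRs that was 245 of 443 rising, 343 of 409 falling and 2958 of 4303 other rows. For coding exons it was 39 of 269, 111 of 411 and 947 of 5365. Among the 3′ UTR rows with a sequence, the median GC content was 46.9% in those that rose, 44.1% in those that fell and 44.8% in those that did not pass. In coding exons it was 58.2% in 39 rows that rose, 53.0% in 111 that fell and 54.5% in 947 others. In 5′ UTRs it was 57.9% in 3 rows that rose and 61.9% in 20 that fell. The quartiles were 40.0% to 52.7% in rising and 38.3% to 49.1% in falling 3′ UTR rows. They were 53.6% to 62.8% and 45.9% to 57.4% in coding exons, and 53.4% to 58.3% and 52.5% to 68.1% in 5′ UTRs. The predicted folding energy had medians of -32.6, -26.8 and -27.4 kcal/mol per 100 bases in the coding groups that rose, fell and did not pass. In 3′ UTRs the same medians were closer, at -25.4, -23.5 and -24.6. In 5′ UTRs they went the other way, at -25.4 in the 3 rows that rose and -34.4 in the 20 that fell. The part of base composition in these changes was not tested. A Pumilio-type site, written TGTANATA, was searched on the strand of the transcript only. Of the 3′ UTR rows with a sequence, it was present in 7.76% of those that rose, 6.12% of those that fell and 8.21% of all. Falling 3′ UTR rows with a sequence lay a median of 840.5 bases beyond the stop codon, against 554 bases for rising ones and 566 for the rest.

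Changed rows of the same gene mostly moved together. Of 323 genes with 2 or more changed rows, 121 had all of them higher, 197 all of them lower and 5 had some of each. A test of each row against the rows of its gene as a whole (edgeR diffSpliceDGE) passed in 6 of 9645 rows, 0.0622%. An unadjusted p under 0.05 was found in 180 rows, fewer than that threshold gives by chance alone. The test was thus conservative here, and the small number that passed cannot show that rows of a gene move together.

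Septin8, a cytoskeletal GTPase, changed in opposite ways within its 3′ UTR. The row at chr11:53548820-53549224 had 10.8, 18.4 and 15.9 CPM at E17.5, against 4.78, 1.78 and 4.45 CPM at E15.5 (log2 2.02 ± 0.43, edgeR adjusted p 0.00334). The row at chr11:53543805-53543949, upstream of it on the plus strand, had 3.02, 3.26 and 2.2 CPM at E17.5, against 6.98, 8.23 and 7.35 CPM at E15.5 (log2 -1.41 ± 0.39, adjusted p 0.0187). That fall was lost without E17.5 replicate 1 (adjusted p 0.0544) or E17.5 replicate 3 (adjusted p 0.0836). Gprasp1, which sorts G protein-coupled receptors, had a 3′ UTR row of 75.7 ± 31.0 CPM at E17.5 and 30.1 ± 10.5 CPM at E15.5 (SD, n = 3 each). Its intron row had 2.37 ± 1.08 CPM at E17.5 and 8.44 ± 5.41 CPM at E15.5, a log2 change of -2.78 relative to the gene (adjusted p 0.000964), lost without E17.5 replicate 2 (adjusted p 0.102). The intron row's own fall was lost without E15.5 replicate 2 (adjusted p 0.1) or E17.5 replicate 1 (adjusted p 0.063). The 3′ UTR call of Gprasp1 was lost without E15.5 replicate 1, E15.5 replicate 3, E17.5 replicate 1 or E17.5 replicate 2 (adjusted p 0.0657 to 0.155). Rows that passed in Ehbp1, Gm32061, Dnase2a and Cdk5rap2 were each lost without any 1 of 4 or more libraries (adjusted p up to 0.503). Rtn1, a reticulon of the endoplasmic reticulum, and Gnas, the stimulatory G protein subunit, came after these 6 with relative changes of 1.71 and 1.64 that did not pass (adjusted p 0.067 and 0.0928). Their rows themselves increased, at 28.0 ± 4.89 CPM at E17.5 and 6.71 ± 2.51 CPM at E15.5 for Rtn1 and 33.1 ± 2.87 CPM at E17.5 and 6.24 ± 2.57 CPM at E15.5 for Gnas.

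Some rows that rose share their position with a row of another gene on the opposite strand. Of the gene rows, 1578 have such a partner at identical coordinates, 151 of the changed rows among them, and in 44 of these the partner changed the same way while in 2 it changed the other way. Dnase2a, a lysosomal nuclease, had 2 rows that rose, both of them opposite rows of Mast1. At chr8:84911843-84912174 the Dnase2a row on the plus strand averaged 13.9 CPM at E17.5 and 2.73 CPM at E15.5, and the Mast1 row on the minus strand 55.7 CPM at E17.5 and 8.15 CPM at E15.5. At chr8:84913013-84913311 the Dnase2a row averaged 11.1 CPM at E17.5 and 2.54 CPM at E15.5, and the Mast1 row 84.1 CPM at E17.5 and 19.6 CPM at E15.5. Both Dnase2a rises were lost without E17.5 replicate 2 (adjusted p 0.699 and 0.191), which alone held 33.8 and 21.5 CPM in them, and without E15.5 replicate 1 or E15.5 replicate 3. The first was also lost without E15.5 replicate 2 (adjusted p 0.0803). Another Dnase2a row, with no partner, at chr8:84922630-84923034, had 0.504, 0.904 and 0.315 CPM at E17.5, against 5.02, 1.65 and 6.13 CPM at E15.5 (edgeR adjusted p 0.00292).

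The intron row of Evc, a protein of the primary cilium, is a second example (chr5:37291264-37291648, minus strand). It had 144, 432 and 113 CPM at E17.5, against 56.8, 44.5 and 15.7 CPM at E15.5 (log2 2.56 ± 0.57, edgeR adjusted p 0.00481), and the opposite row of Crmp1 averaged 648 CPM at E17.5 and 222 CPM at E15.5. Slc25a53, a mitochondrial carrier, is a further case. Its intron row averaged 35.1 CPM at E17.5 and 8.28 CPM at E15.5, opposite a row of Zcchc18 at 41.6 CPM at E17.5 and 10.6 CPM at E15.5. That Slc25a53 rise was lost without E15.5 replicate 3 (adjusted p 0.0544) or E17.5 replicate 2 (adjusted p 0.0768). Whether reads of one strand were counted on the other was not tested, so the Dnase2a, Evc and Slc25a53 rises are uncertain.

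**Figure D4:**
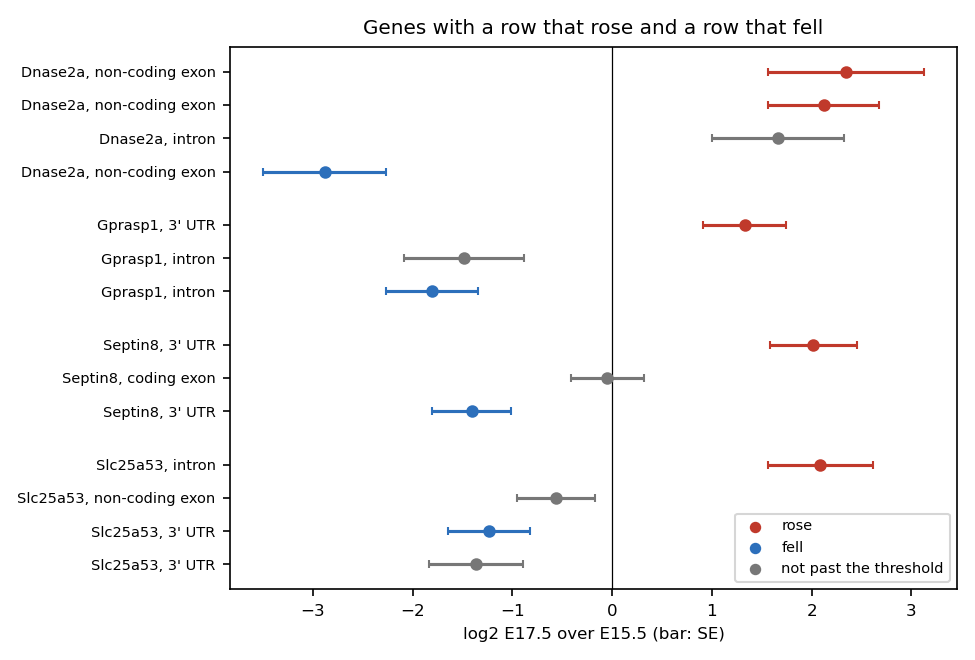
Log2 change at E17.5 over E15.5 (bar: SE) of every tested row of 4 genes with rows changed in both directions. Red rows rose, blue rows fell and grey rows did not pass; Septin8 has 3′ UTR rows at 2.02 and -1.41.

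The rows with the highest counts lie in introns and did not pass. Among them, rows in introns of Cmss1, Kcnip1, Camk1d and Il31ra had log2 changes of 0.27 to 0.30 and edgeR adjusted p of 0.592 to 0.713. The Cmss1 row alone had 98173, 89054 and 70819 CPM at E17.5, against 53784, 82272 and 73642 CPM at E15.5. Among the 23 intron rows that rose, those of Prpf6, a splicing factor, and Pde4dip, the centrosomal myomegalin, had the smallest p. The Prpf6 row had 8.57, 10.5 and 19.7 CPM at E17.5, against 1.22, 2.33 and 0.668 CPM at E15.5. Among the 21 that fell, an intron row of Rmst, a long non-coding RNA of neurogenesis, had 1 count over the E17.5 libraries and 310 over the E15.5 libraries. The E15.5 over E17.5 ratio of that row was 226, with a 95% exact binomial interval of 40.3 to 8969 that covers counting error only.

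The change between E17.5 and E15.5 was also set against the one between E15.5 and E13.5, and the 2 differed in 13 of 14101 rows, 0.0922%, of which 3 were more positive at the later step and 10 more negative; 955 had an unadjusted p under 0.05. Both steps use the E15.5 libraries. Nhlh1 had 19.4 ± 4.65 CPM at E11.5, 50.4 ± 21.9 CPM at E13.5, 54.3 ± 6.16 CPM at E15.5 and 3.1 ± 0.59 CPM at E17.5 (SD, n = 3 each) in its 3′ UTR row. Its change in the later step minus that in the earlier one was log2 -4.23 ± 0.62 (edgeR adjusted p 0.00425). The Rmst intron row went through 19.8 ± 6.83, 18.8 ± 8.97, 12.6 ± 4.12 and 0.0603 ± 0.104 CPM over the 4 stages, a difference between steps of -6.79 ± 1.07 (adjusted p 0.00425). Both were present through E15.5 and low at E17.5. Neurog1 behaved likewise in both its rows (differences of -5.04 ± 0.78 and -4.25 ± 0.66), and these calls were lost without E15.5 replicate 2 (adjusted p 0.0583 and 0.051). Mkx, a homeobox gene of tendon, had the opposite course, with 16.7 ± 0.938 CPM at E11.5, 1.93 ± 0.748 CPM at E13.5, 0.756 ± 0.682 CPM at E15.5 and 11.6 ± 3.39 CPM at E17.5. Its difference of 5.26 ± 1.01 (adjusted p 0.045) was lost without E15.5 replicate 2, E15.5 replicate 3, E17.5 replicate 1 or E17.5 replicate 3 (adjusted p 0.0587 to 0.223). Prelp, a leucine-rich proteoglycan, and a coding row of Tcf7l1 had differences of -5.71 ± 1.14 and -3.38 ± 0.66 (adjusted p 0.045 and 0.0455). Each was lost without any 1 of 5 libraries, E17.5 replicate 2 being the exception (adjusted p 0.0757 to 0.124 for Prelp and 0.0666 to 0.223 for Tcf7l1). The Prelp call was also lost without any 1 of the 3 E13.5 libraries (adjusted p 0.0518 to 0.0843), and the Mkx and Tcf7l1 calls without E13.5 replicate 1 (adjusted p 0.103 for both) or E13.5 replicate 3 (adjusted p 0.0607 for Mkx and 0.109 for Tcf7l1). The count of 13 became 3 to 24 on leaving out 1 library.

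**Figure D5:**
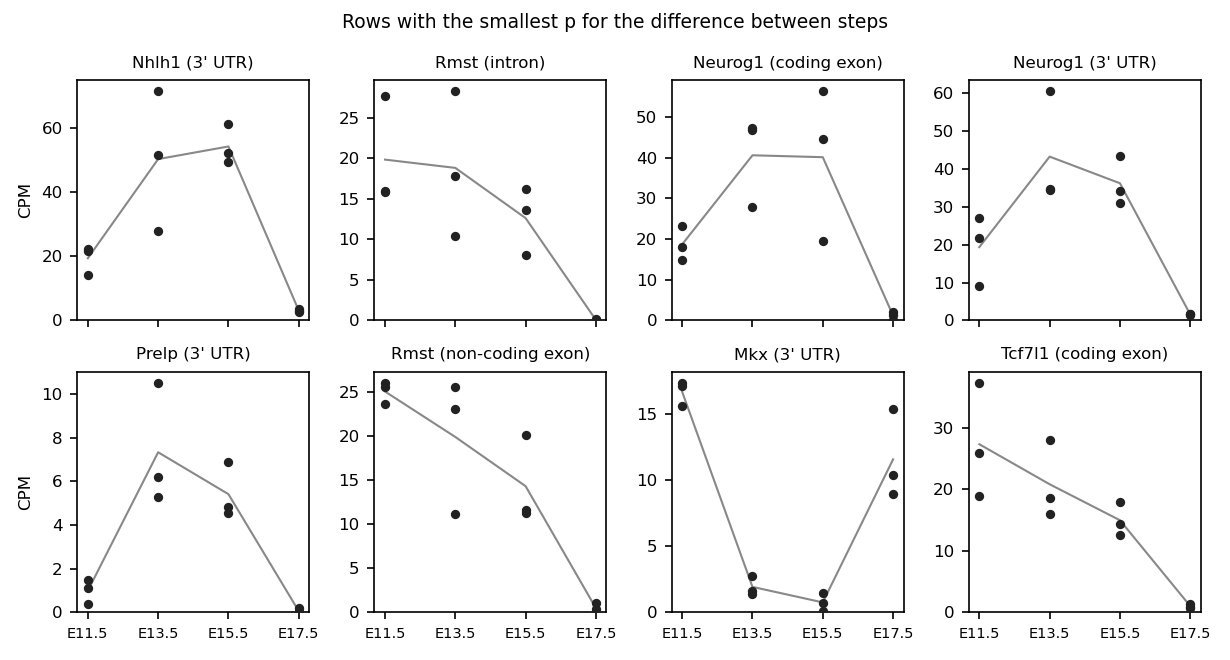
CPM (linear axes from 0) over the 4 stages, E11.5 to E17.5 from left to right, for the 8 rows with the smallest p for the difference between steps, with 1 point per library and a line through the stage means. All but Mkx are lowest at E17.5, and Mkx is high at E11.5 and E17.5.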

How the data were processed

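RNA bound to STAU2 was immunoprecipitated from mouse cortex, ribosomal RNA was removed with Ribo-Zero and strand-marked libraries were made with ScriptSeq, per the labels' protocols. The authors deposited a table of merged peaks with a whole-number read count per library and a peak score, per the file headers. HOMER 4.10 and mm10 are named in the submitters' processing notes; aligner and counter: not given in the sources used here. Deposited counts were used as they are, and the authors' peak score only for an alternative. Column names give stage and replicate, which immunoprecipitation and input have in common. As a list of peaks, the table was taken to count the immunoprecipitations.

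Rows placed outside genes (4513) and rows in genes without a symbol (170) were left out. All 12 immunoprecipitations of the 4 stages entered 1 edgeR 4.0.16 quasi-likelihood fit in R 4.3.3 with TMM scaling, without a replicate term. E17.5 was compared with E15.5 per row, and per gene on counts summed over its rows with their own scaling, so row and gene CPM differ slightly. Rows were compared with the rest of their gene with diffSpliceDGE. The scripts were tested on simulated data. Low counts left 191 rows untested. Sequence was taken from GENCODE M21 and folded with RNAfold 2.7.2. The members and gene lists were chosen with earlier results of these data known. Genes were named by a rule. It takes the 15 largest rises and 15 largest falls past the threshold with no overlap of libraries and at least 50 CPM in the higher stage, 1 row a gene and no Gm or Rik models. It adds per list the 4 genes with the smallest p and those that went against most of it, the 8 genes or rows with the smallest p in the relative and step tests, up to 6 genes with rows changed both ways, 5 intron rows in each direction, Stau2, Stau1 and the 5 highest rows. Some genes it picks are not described. Genes of the sequences shown were added by the rule given with them. Alternatives were DESeq2 1.42.0, other scalings and filters, the 6 libraries alone, a replicate term, a score minimum and leaving out each of the 6 libraries of E15.5 and E17.5. For the difference between steps the 3 E13.5 libraries were also left out in turn, a choice made after seeing the data. Intervals and floors cover counting error only. Some genes that met the naming rules are not reported here.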

Additional observations from a re-analysis of the deposited data

How the results depend on the processing

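Over 3210 comparisons of named rows and genes with an alternative, 2977 stayed on the same side of the threshold, 201 lost the threshold and 32 passed it. No named result that had passed changed sign under an alternative, whereas 18 that had not passed did so in 49 comparisons, the Stau1 gene and the intron rows of Cmss1 and Kcnip1 among them. Leaving out 1 library gave 1055 to 1497 changed rows and 1107 to 1319 changed genes. Each such setting tests fewer samples. Only rows with a peak score at or above the median gave 974 changed rows and 854 changed genes, with fewer rows tested. DESeq2 gave 2280 rows and 1919 genes, and every-peak totals 2676 rows. Rises among list members numbered 77, against 47 with every-peak totals, 50 with the score minimum and 57 to 68 without 1 library. Falls among list members numbered 103, against 63 with the score minimum and 85 to 91 without 1 library. For rows against their gene, 6 rows passed, against 3 at a minimum of 10 CPM and 2 to 4 without 1 library. For the difference between steps, 13 rows passed, against 3 to 24 without 1 library. There were 5 without E15.5 replicate 1, 3 without E15.5 replicate 2, 5 without E17.5 replicate 1, 24 without E17.5 replicate 2 and 5 without E17.5 replicate 3, while dropping an E13.5 library, an alternative added after seeing the data, left 4 (replicate 1), 9 (replicate 2) or 4 (replicate 3). The cause of these shifts was not tested.

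The labels do not say that replicate numbers pair samples, so the numbers were not taken as pairs. In their deviations from the stage means, E17.5 and E15.5 libraries with the same replicate number correlated at 0.026, 0.216 and 0.148. Libraries with different numbers correlated at -0.444 to 0.353. With so few libraries a stage, these values cannot show whether the numbers pair samples. With the replicate block 2322 rows and 1825 genes changed, 16 rows differed from their gene and 38 rows differed between steps.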
